A study of Homo sapiens with 8 samples.

Results

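The genes described here carry glucose into the cell, break it down to pyruvate and lactate, and move lactate across the membrane. They are 31 genes, taken by symbol from both count tables of an mRNA-seq experiment in HCT116, a human colorectal cancer cell line. All 31 are among the 42125 genes of the first table and the 23393 genes of the second, and all 31 passed the expression filter in both. Every library came from HCT116 cells that stably carried a Tet-On shRNA against SAE2, the catalytic subunit of the SUMO activating enzyme, which is encoded by UBA2. In the first experiment the cells were given siRNA for 48 hrs, either a control sequence or one directed at TFAP2C. TFAP2C is a transcription factor of the AP-2 family. In the second experiment they were grown for 5 days with DMSO, called control, or with 1 μg/mL of doxycycline (Dox), which induces the shRNA, called SAE2 kd. Each of the 4 groups has 2 libraries. The sources used here do not say whether the replicates were separate cultures, so the p-values measure only the spread between these libraries, and whether the line is 1 clone is not stated.

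Glucose enters through transporters such as GLUT1, is phosphorylated by hexokinase, and is converted through 6-phosphofructokinase, aldolase and enolase to pyruvate. Lactate dehydrogenase turns pyruvate into lactate, while pyruvate dehydrogenase passes it to the mitochondria and is switched off by the PDK kinases. The PFKFB enzymes set the level of fructose 2,6-bisphosphate, an activator of 6-phosphofructokinase. Many of these genes are textbook targets of the hypoxia-inducible factor HIF, which binds a short core around CGTG, and fast glycolysis with lactate release is a known trait of colorectal cancer cells.

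The promoters below belong to the 4 members with the largest falls with Dox and the 2 that rose after TFAP2C siRNA, and are shown so that their CGTG and AP-2 letters can be seen beside the values. Each is the 250 bases before the RefSeq start site on GRCh38.p14, on the gene's own strand. ALDOC (chr17:28576896-28577145, minus strand), PFKFB4 (chr3:48556804-48557053, minus strand), PDK3 (chrX:24465036-24465285, plus strand) and ENO2 (chr12:6914330-6914579, plus strand) are those with the falls. Capitals in these 4 mark the HIF core, searched as ACGTG or GCGTG on both strands.
ALDOC: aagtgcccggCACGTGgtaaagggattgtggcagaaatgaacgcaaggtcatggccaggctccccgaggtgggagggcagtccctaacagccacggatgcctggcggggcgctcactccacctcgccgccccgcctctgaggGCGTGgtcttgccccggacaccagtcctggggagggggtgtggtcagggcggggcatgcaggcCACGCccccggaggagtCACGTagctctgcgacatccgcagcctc
PFKFB4: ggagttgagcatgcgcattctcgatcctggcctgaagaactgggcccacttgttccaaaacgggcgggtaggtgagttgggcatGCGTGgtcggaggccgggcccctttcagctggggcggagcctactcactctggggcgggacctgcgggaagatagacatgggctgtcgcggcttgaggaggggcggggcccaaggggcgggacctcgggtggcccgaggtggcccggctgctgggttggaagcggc
PDK3: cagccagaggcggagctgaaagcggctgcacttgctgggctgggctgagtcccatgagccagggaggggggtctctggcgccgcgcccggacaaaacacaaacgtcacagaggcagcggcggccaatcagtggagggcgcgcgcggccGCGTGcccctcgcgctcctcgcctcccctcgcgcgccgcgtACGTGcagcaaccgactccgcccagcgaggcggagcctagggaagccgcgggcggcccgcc
ENO2: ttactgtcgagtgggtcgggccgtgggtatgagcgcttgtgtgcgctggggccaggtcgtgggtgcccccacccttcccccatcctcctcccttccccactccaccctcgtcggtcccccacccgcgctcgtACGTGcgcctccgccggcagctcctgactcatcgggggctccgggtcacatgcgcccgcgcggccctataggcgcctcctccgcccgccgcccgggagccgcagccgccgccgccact
HK2 (chr2:74833877-74834126, plus strand, the first of 2 start sites) and SLC2A1 (chr1:42958869-42959118, minus strand) are those that rose. Here the capitals mark the AP-2 core, GCCNNNGGC, which reads the same on both strands.
HK2: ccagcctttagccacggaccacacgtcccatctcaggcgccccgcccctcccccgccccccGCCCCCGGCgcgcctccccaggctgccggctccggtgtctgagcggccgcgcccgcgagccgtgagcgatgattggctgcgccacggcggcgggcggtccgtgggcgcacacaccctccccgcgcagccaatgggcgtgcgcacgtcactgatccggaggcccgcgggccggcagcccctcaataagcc
SLC2A1: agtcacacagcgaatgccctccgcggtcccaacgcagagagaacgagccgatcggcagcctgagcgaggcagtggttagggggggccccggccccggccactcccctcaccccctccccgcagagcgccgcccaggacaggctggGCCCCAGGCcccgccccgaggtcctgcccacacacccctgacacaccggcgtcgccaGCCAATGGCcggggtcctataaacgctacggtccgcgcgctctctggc

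The ALDOC promoter held 5 matches to the HIF core, of which the pair at 240 and 239 bases before the start overlap in the palindrome CACGTG. The PDK3 promoter held 2 matches, and those of PFKFB4 and ENO2 held 1 each. The AP-2 core, not marked in these, stood 2 times in the PDK3 window and 0 times in the other 3. The SLC2A1 window held 0 matches to the HIF core and 2 to the AP-2 core, while the HK2 window shown held 3 and 1. Neither set of letters is rare. Among members called in neither experiment, the PFKL and PDHA1 windows held 3 AP-2 cores each, and the PDHB window held 6 HIF cores. The windows of PGAM1, PKM and LDHB, also not called, held 0 of both. The HIF core stood in 43.2% of all 35116 promoter windows and in 32 of the 59 windows of the members, or 54.2%. The AP-2 core stood in 19.8% of all windows and in 21 of the 59, or 35.6%. Start sites were listed for 28 of the 31 genes, of which 24 had a HIF core and 16 an AP-2 core in at least 1 window. Several genes have more than 1 window, and the share per gene was not computed over all genes. These counts therefore cannot be set against the shares of windows. SLC2A3, SLC16A1 and PFKFB2 had no entry. A match is a description of the letters and not a binding site.

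Total counts were 20785035 to 24465109 in the siRNA experiment and 18213739 to 20607813 in the Dox experiment. The members took 1.38% and 1.42% of them with control siRNA and 1.52% and 1.46% with TFAP2C siRNA. In the Dox experiment they took 1.51% and 1.53% in control and 1.45% and 1.43% in SAE2 kd. The siRNA totals include 37 genes of the mitochondrial chromosome, which took 9.79% to 9.96% of the counts, while the Dox totals include 0. These shares are therefore not comparable between the experiments. The TFAP2C siRNA libraries stood further apart from each other than the pair of any other group, with a chi-square per degree of freedom of 9.09 over genes against 2.55 to 2.76 in the other 3. TFAP2C itself had 18.9 and 20.5 CPM (read counts relative to the library's size, as scaled by TMM) with control siRNA and 3.46 and 4.30 CPM with its siRNA. UBA2 had 162 and 146 CPM in the control libraries and 147 and 153 CPM in the libraries labelled SAE2 kd, a log2 fold change of -0.036 with a 95% interval of -0.15 to 0.078, so its mRNA did not check that label. Of 10 markers of colon epithelium, 8 were above 1 CPM in every library of each experiment. Their summed level ran from 3140 to 3262 CPM with control siRNA and 3467 to 3757 CPM with TFAP2C siRNA, and from 2289 to 2309 CPM in control and 2534 to 2620 CPM in SAE2 kd. Of 6 fibroblast markers COL1A2, DCN and LUM were at 0 in all libraries, while COL1A1 had 43.2 to 47.5 CPM in the siRNA experiment and 14.9 to 21.8 CPM in the Dox experiment. The summed level of the 6 ran from 46.7 to 48.3 CPM with control siRNA and 44.2 to 45.3 CPM with TFAP2C siRNA, and from 15.9 to 22.2 CPM in control and 15.1 to 16.5 CPM in SAE2 kd. The part of either list in the changes below was not tested.

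Levels can be compared between genes only per length, and only in the Dox table, since the other gives HK1 a length of 131.9 kb, its whole span on the chromosome. In RPKM, which divides CPM by the gene's length in kilobases, GAPDH stood highest in the control libraries, at 1675 and 1667 RPKM. This enzyme oxidises glyceraldehyde 3-phosphate. LDHB followed at 699 and 723 RPKM, then ENO1 at 667 and 670 RPKM and PKM, the pyruvate kinase gene, at 653 and 666 RPKM. ENO1 and PKM differed by less than the spread between the PKM libraries, while LDHA, at 444 and 448 RPKM, stood below all of these. With control siRNA, counted on another annotation, LDHB had a mean of 57.1 CPM and LDHA 824 CPM. The order given here is therefore that of the counts of the Dox table only. HK2, at 19.3 and 18.2 RPKM, was close to HK1, at 22.1 and 22.2 RPKM. The lowest were PDK3, at 2.76 and 2.75 RPKM, and SLC2A3, which encodes the high-affinity transporter GLUT3, at 0.993 and 1.21 RPKM. Every step of the pathway thus had a transcript above 10 RPKM in these cells.

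The effect of TFAP2C siRNA was asked first. Two-sided quasi-likelihood tests of edgeR were fitted to all 14991 genes that passed the filter, with Benjamini-Hochberg adjustment, and genes with an adjusted p under 0.05 were called. HK2 and SLC2A1 rose, SLC2A3 fell, and the other 28 members did not pass. That is 3 of the 31 members, where 0.74% of all genes were called. Over all genes 0.26% were called higher and 0.48% lower, against 2 and 1 of the 31 here. At an unadjusted p under 0.05 there were 6 members higher and 4 lower, where 5.68% and 6.92% of all genes were.

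HK2 encodes hexokinase 2, which traps glucose in the cell as glucose 6-phosphate. Its gene lies on chromosome 2 from 74833981 to 74893359 on GRCh38. HK2 had 70.7 and 77.6 CPM with control siRNA and 102 and 107 CPM with TFAP2C siRNA. Both TFAP2C siRNA libraries were above both controls, and the mean was 41.2% higher. The log2 fold change was 0.50 ± 0.076 (SE, n = 2 against 2), with an edgeR adjusted p of 0.0113. HK1, the constitutive hexokinase, had 168 and 171 CPM against 181 and 166 CPM, and its groups overlapped. HK2 took 29.6% and 31.2% of the reads on the HK1 and HK2 genes with control siRNA, and 36.1% and 39.2% with TFAP2C siRNA. The exact 95% binomial intervals ran from 28.4% to 32.5% over the controls and reached 40.5% in the knockdown, and those of the groups did not overlap. Such intervals cover counting error only, and shares of reads are not corrected for gene length. In this table the length given for HK1 is 131.9 kb, its whole span. In the control libraries of the Dox experiment, counted on another annotation, HK2 took 56.5% and 55.0% of these reads.

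SLC2A1, on chromosome 1 from 42925375 to 42959176, encodes the basal glucose transporter GLUT1. It had 88.1 and 94.6 CPM with control siRNA and 128 and 126 CPM with TFAP2C siRNA, a gain of 38.8% in the mean. The log2 fold change was 0.47 ± 0.071 (SE), with an edgeR adjusted p of 0.0105. SLC2A3 moved in the opposite direction. On chromosome 12 from 7919230 to 7936187, it had 19.4 and 23.6 CPM with control siRNA and 10.9 and 13.8 CPM with TFAP2C siRNA. Its log2 fold change was -0.79 ± 0.13 (SE), with an edgeR adjusted p of 0.0174. GLUT1 and GLUT3 transcripts therefore changed in opposite directions, and the groups overlapped for neither. Without the first control siRNA library the log2 fold changes of HK2 and SLC2A1 were 0.43 and 0.42, but their calls were lost (adjusted p 0.218 and 0.229), whereas SLC2A3 stayed below the threshold in each of 11 alternatives. Without the second TFAP2C siRNA library 11 members were called higher and 3 lower, among 2825 genes called.

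Of the 31 log2 fold changes after TFAP2C siRNA, called or not, 25 were above 0, with a median of 0.10 beside -0.0038 over all genes tested. In 15 members both TFAP2C siRNA libraries exceeded both controls and in 5 both were lower. Of all genes 22.4% were higher in this way and another 22.4% lower. SLC16A3, the lactate exporter MCT4, had 376 and 399 CPM with control siRNA and 463 and 438 CPM with TFAP2C siRNA (log2 fold change 0.22, edgeR adjusted p 0.210). LDHA, the lactate dehydrogenase subunit that favours lactate, had 814 and 834 CPM against 936 and 918 CPM (0.17, adjusted p 0.311). The pyruvate kinase gene PKM had 2778 and 2911 CPM against 3369 and 3077 CPM (0.18, adjusted p 0.364). None of these passed, although their groups did not overlap. Members with lower values did not pass either. SLC16A1, the lactate transporter MCT1, had 145 CPM in both control siRNA libraries and 125 and 127 CPM with TFAP2C siRNA (-0.21, adjusted p 0.217). PFKFB3, an inducible PFKFB isoform with high kinase activity, had 74.0 and 78.8 CPM against 65.3 and 63.3 CPM (-0.25, adjusted p 0.196). ALDOC, the brain-type aldolase, had 156 and 169 CPM against 145 and 140 CPM (-0.19, adjusted p 0.278). The other uncalled members ran from -0.16 for ENO3 to 0.23 for ALDOA on the log2 scale. ALDOA had 27.5 and 34.2 CPM with control siRNA and 35.3 and 37.1 CPM with TFAP2C siRNA. GPI, glucose 6-phosphate isomerase, had 663 and 718 CPM against 779 and 751 CPM, with a log2 fold change of 0.15. Both stood higher in each TFAP2C siRNA library, with adjusted p-values of 0.381 and 0.404. The mean of PGM1, phosphoglucomutase, was 105 and 106 CPM in the groups, the smallest change of the 31.

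**Figure D1:**
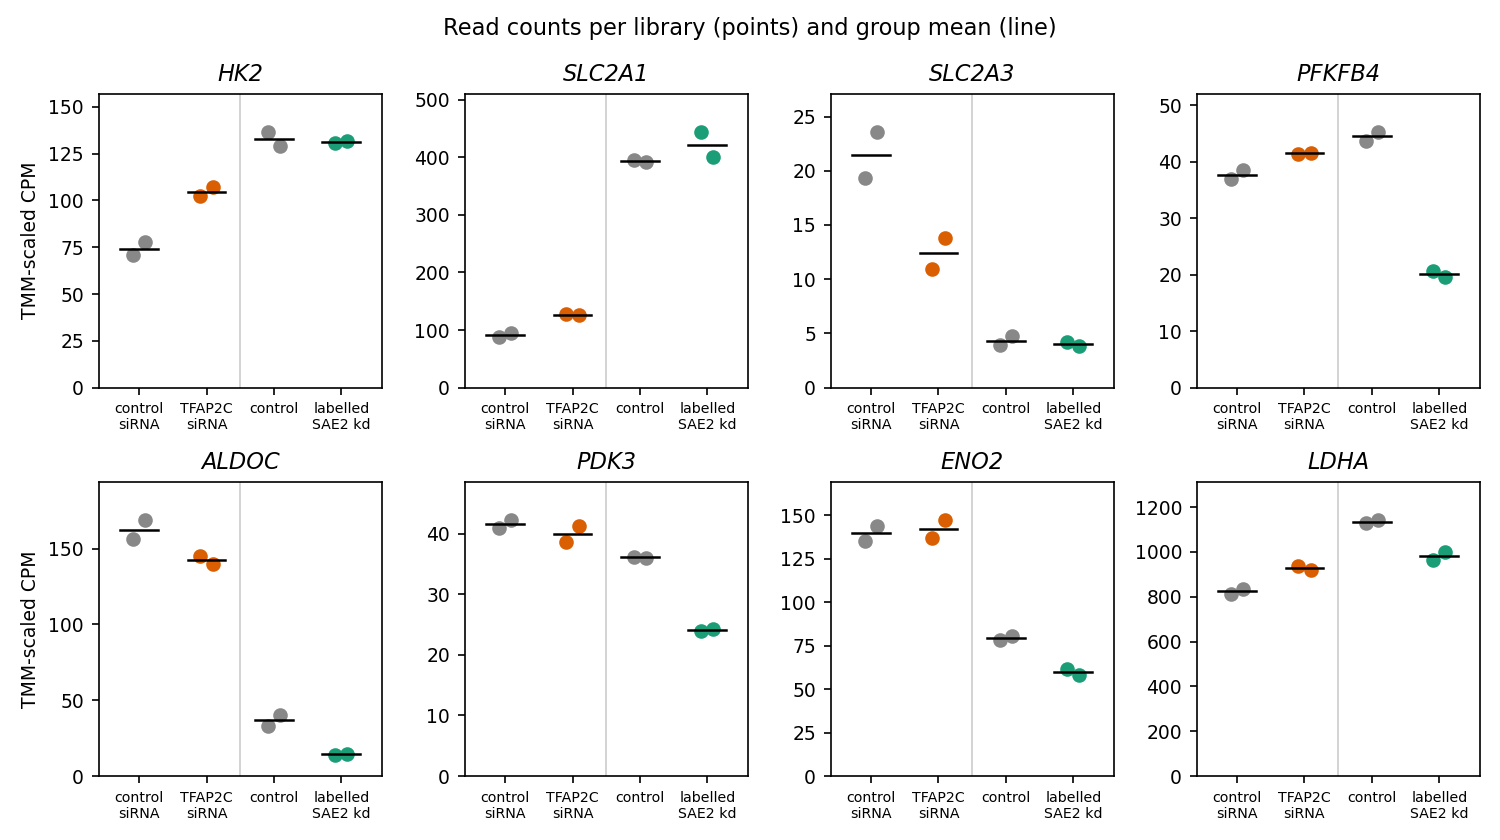
Read counts of 8 members in each of the 8 libraries, in TMM-scaled CPM on linear axes from 0. Points are libraries, lines are means of 2, and the grey divider separates the siRNA experiment from the Dox experiment, which were counted separately. HK2 and SLC2A1 were higher after TFAP2C siRNA, while PFKFB4, ALDOC, PDK3, ENO2 and LDHA were lower in the libraries labelled SAE2 kd.

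The second comparison asked what Dox did to the same genes. Here 9 of the 31 members fell and 0 rose by the edgeR test. Of the 13381 genes tested 9.98% were called, with 4.47% lower and 5.52% higher. At an unadjusted p under 0.05 there were 10 members lower and 2 higher (SLC2A1 and SLC16A1), where 11% and 11.7% of all genes were. PFKFB4 and ALDOC lost more than 50% of their level, PDK3 and ENO2 changed less, and the other 5, namely LDHA, TPI1, SLC16A3, PGK1 and PFKM, had log2 fold changes under 0.3 in size.

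PFKFB4 encodes a PFKFB isoform and lies on chromosome 3 from 48555117 to 48598562 on hg19. It had 43.7 and 45.3 CPM in the control libraries and 20.6 and 19.6 CPM in the libraries labelled SAE2 kd. The mean fell by 54.8%, with a log2 fold change of -1.15 ± 0.080 (SE, n = 2 against 2) and an edgeR adjusted p of 1.43e-12. Its share of the reads on PFKFB2, PFKFB3 and PFKFB4 was 28.6% and 29.3% in control and 15.3% and 15.2% with Dox. PFKFB3 had 76.6 and 78.9 CPM against 81.8 and 77.4 CPM, and PFKFB2 had 32.4 and 30.4 CPM against 32.6 and 32.2 CPM. Within this family PFKFB4 was thus the member that fell, while the groups of the other two overlapped.

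ALDOC lies on chromosome 17 from 26900133 to 26903951 on hg19. It had 32.9 and 40.4 CPM in control and 13.9 and 14.6 CPM in the libraries labelled SAE2 kd. The mean fell by 61.2%, and the log2 fold change was -1.37 ± 0.097 (SE) with an edgeR adjusted p of 2.53e-12. ALDOA, the main aldolase of most tissues, had 1129 and 1123 CPM in control and 1105 and 1059 CPM with Dox. Its log2 fold change of -0.058 had an adjusted p of 0.427. ALDOC was a small part of the aldolase reads, falling from 2.83% and 3.48% to 1.24% and 1.36%.

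PDK3, on chromosome X from 24483344 to 24568583 on hg19, encodes a kinase that inactivates pyruvate dehydrogenase. It had 36.2 and 36.0 CPM in control and 23.9 and 24.3 CPM in the libraries labelled SAE2 kd, a log2 fold change of -0.58 ± 0.079 (SE) with an edgeR adjusted p of 2.23e-06. The related PDK1 had 22.5 and 20.9 CPM against 19.7 and 19.5 CPM (-0.14, adjusted p 0.376). PDK2 had 34.3 and 34.0 CPM against 34.6 and 31.1 CPM (-0.057, adjusted p 0.730). Of the 3 kinases, PDK3 was the one that passed the test, and its share of their reads went from 38.9% and 39.6% to 30.6% and 32.4%. The substrate genes PDHA1 and PDHB, which encode the E1 subunits, had log2 fold changes of 0.026 and -0.14 and did not pass.

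ENO2, the neuronal-type enolase, lies on chromosome 12 from 7023614 to 7032859 on hg19. It had 78.1 and 80.3 CPM in control and 61.3 and 58.2 CPM in the libraries labelled SAE2 kd, a log2 fold change of -0.41 ± 0.063 (SE) with an edgeR adjusted p of 1.83e-05. ENO1, the enolase of most tissues, had 2454 and 2462 CPM against 2433 and 2393 CPM, with a log2 fold change of -0.027. The muscle-type ENO3 was scarce, with 6.09 and 7.28 CPM against 7.72 and 7.14 CPM. In the reads of the Dox table ALDOC and ENO2 were the scarcer genes beside ALDOA and ENO1, which did not pass the test. In the siRNA table, counted on another annotation, ALDOC took 79.0% to 85.1% of the aldolase reads, and the reason was not tested.

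The 5 smaller falls lay mostly in abundant enzymes. LDHA had 1128 and 1141 CPM in control and 965 and 1002 CPM in the libraries labelled SAE2 kd (log2 fold change -0.21, edgeR adjusted p 0.000501). TPI1, triose phosphate isomerase, had 506 and 503 CPM against 446 and 440 CPM (-0.19, adjusted p 0.00352). SLC16A3 had 364 and 379 CPM against 339 and 308 CPM (-0.20, adjusted p 0.00646). In these genes every library labelled SAE2 kd was below every control, and the means fell by 12.2% to 13.3%. PGK1, phosphoglycerate kinase 1, had 449 and 450 CPM against 399 and 414 CPM (-0.15, adjusted p 0.0315). PFKM, the muscle-type 6-phosphofructokinase, had 180 and 179 CPM against 166 and 155 CPM (-0.16, adjusted p 0.0423). The calls of PFKFB4, ALDOC, PDK3, ENO2 and LDHA held in each of 11 alternatives, TPI1 in 10, SLC16A3 in 8, PGK1 in 6 and PFKM in 5. Without the second library labelled SAE2 kd, SLC16A3 had a log2 fold change of -0.13 and an adjusted p of 0.111.

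HK2 was not among the falls. It had 137 and 129 CPM in control and 131 and 132 CPM in the libraries labelled SAE2 kd, and both lay between the controls. The log2 fold change was -0.016, with a 95% interval of -0.13 to 0.095 and an edgeR adjusted p of 0.899. GAPDH was equally flat, with 2680 and 2668 CPM against 2701 and 2652 CPM and an interval of -0.073 to 0.076 around a log2 fold change of 0.0013. The transporter SLC2A1 had 395 and 392 CPM against 444 and 400 CPM (0.10, adjusted p 0.202). SLC16A1 had 248 and 240 CPM against 252 and 275 CPM (0.11, adjusted p 0.182). Each of these last genes was called higher when 1 library labelled SAE2 kd was left out, SLC2A1 without the second (adjusted p 0.0108) and SLC16A1 without the first (adjusted p 0.0327). Of all 31 members 20 were below 0 and 11 above, with a median of -0.063 beside -0.00042 over all genes. The phosphofructokinase genes PFKL and PFKP, at log2 fold changes of 0.045 and 0.017, and the isomerase GPI, at -0.063, did not pass. PGAM1, phosphoglycerate mutase, had 38.1 and 40.2 CPM against 34.8 and 36.5 CPM, and HK1 had 105 and 106 CPM against 95.6 and 95.1 CPM. Their log2 fold changes of -0.14 and -0.15, with adjusted p-values of 0.286 and 0.104, were close in size to that of PGK1, which passed. In 17 members both Dox libraries were below both controls, and in 3 above, where 25.8% and 25.5% of all genes were.

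**Figure D2:**
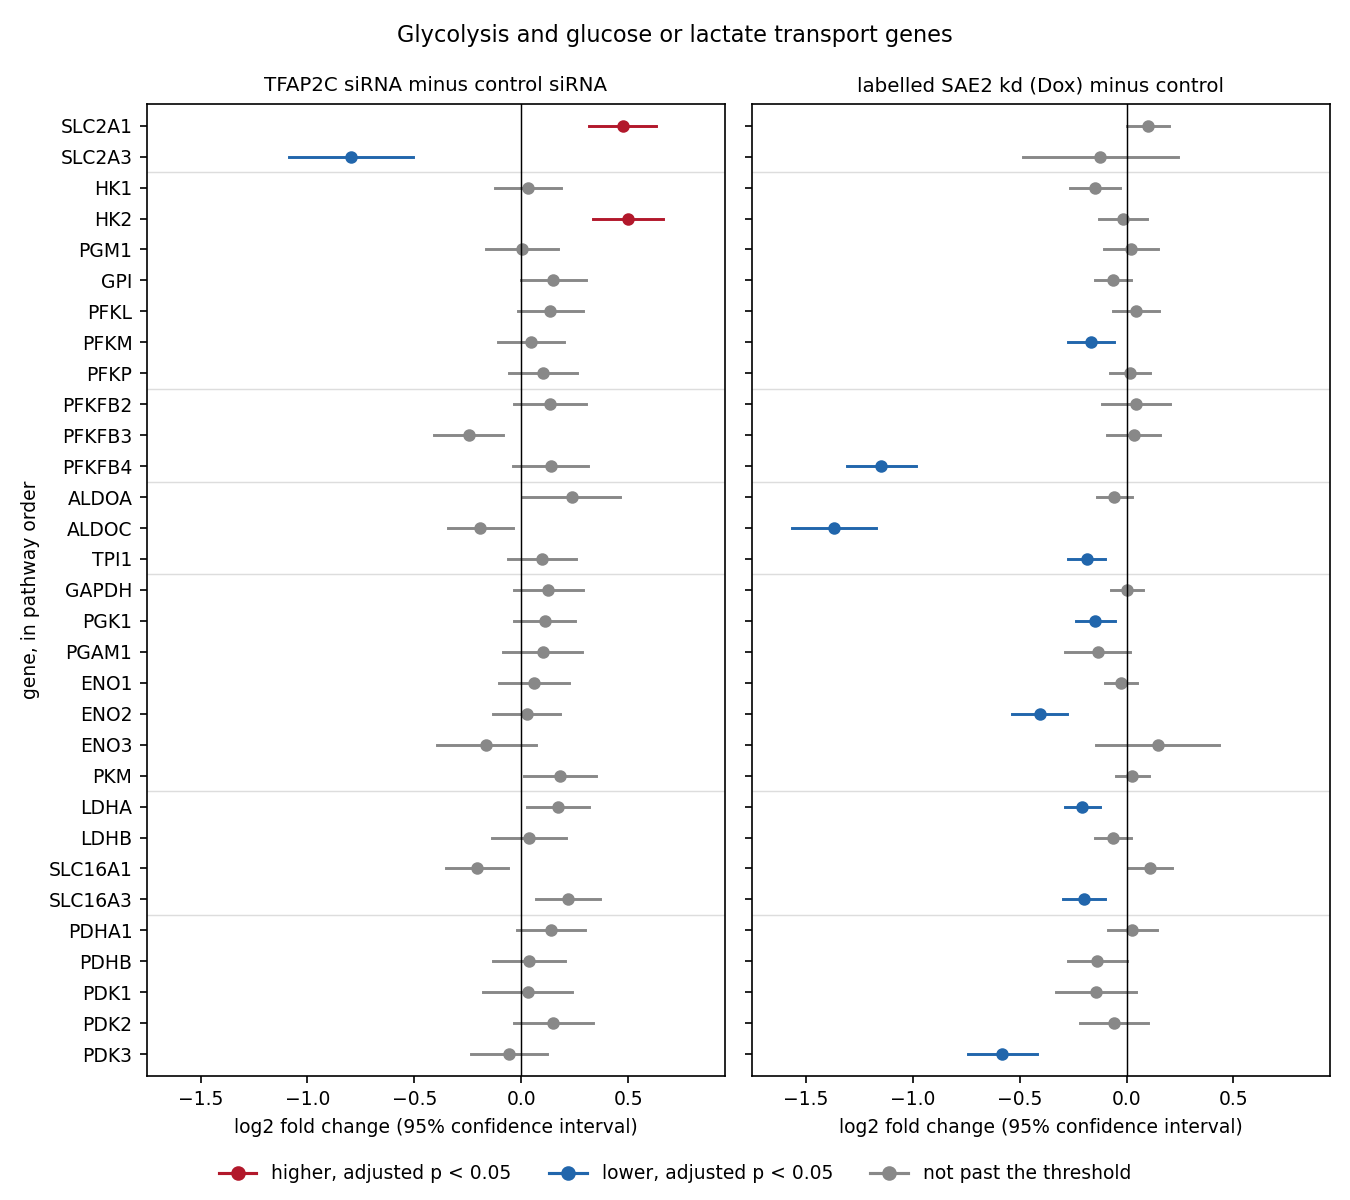
Log2 fold changes of the 31 members in the siRNA experiment (left) and the Dox experiment (right), in pathway order, with 95% confidence intervals from edgeR. Red and blue mark an adjusted p under 0.05. On the left 2 genes are red and 1 is blue, and on the right 9 are blue and 0 red.

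The genes were then ordered by their step in the pathway. Beside the counts below, 0.26% of all genes were called higher and 0.48% lower after TFAP2C siRNA. With Dox these shares were 5.52% and 4.47%. The classes are small, and differences between them were not tested. Of the 10 genes from hexokinase to triose phosphate isomerase, phosphoglucomutase included, 1 rose after TFAP2C siRNA, and 3 fell with Dox. Of the 7 from GAPDH to pyruvate kinase, 0 passed after TFAP2C siRNA, and their log2 fold changes ran from -0.16 to 0.18. With Dox 2 of these 7 fell. Of the 4 lactate genes 0 passed after TFAP2C siRNA and 2 fell with Dox, while of the 5 pyruvate dehydrogenase and PDK genes the counts were 0 and 1. Of the 3 PFKFB genes the counts were 0 and 1, and of the 2 glucose transporters 1 rose and 1 fell after TFAP2C siRNA and 0 passed with Dox.

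No member was called in both experiments, so 12 members were called in 1 of them and 19 in neither. Of all genes tested, 0.74% were called after TFAP2C siRNA and 9.98% with Dox. The share of all genes called in both was not computed. A model of all 8 libraries, over 13179 tested genes of the 21257 symbols found in both tables, compared the responses directly. The experiments share no control libraries, but they were counted on different annotations and differ in treatment and time, which cannot be told apart in this difference. The difference was called for 8 members and for 2.37% of all genes. All 8 had a higher log2 fold change after TFAP2C siRNA than with Dox, a direction called for 0.903% of all genes, while the opposite was called for 1.47%. HK2 differed by 0.50 ± 0.092 (SE), with a 95% interval of 0.31 to 0.70 and an edgeR adjusted p of 0.00723. The larger HK2 change was on the siRNA side, at 0.50 against -0.016, and the adjusted p of the difference was 0.0711, 0.0647 and 0.0627 without the first control siRNA, first control or first SAE2 kd library.

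For PFKFB4, with log2 fold changes of 0.14 and -1.15, the difference was 1.27 (edgeR adjusted p 3.08e-05). For ALDOC it was 1.16 (adjusted p 0.000121), with -0.19 and -1.37. In both genes the larger change was on the Dox side, and the differences held in each of 14 alternatives. PDK3 differed by 0.51 (adjusted p 0.0158) and ENO2 by 0.42 (0.0265), again with the larger change in the Dox libraries. SLC16A3 differed by 0.40 (0.0180) and LDHA by 0.36 (0.00898), with changes of nearly equal size above 0 after TFAP2C siRNA and below 0 with Dox. SLC2A1 differed by 0.36 (0.0442), with a log2 fold change of 0.47 after TFAP2C siRNA and 0.10 with Dox. These calls were less stable, holding in 7 of 14 alternatives for PDK3 and ENO2, 10 for LDHA, 9 for SLC16A3 and 8 for SLC2A1. The number of members passing also moved when a library was left out, and the share of all genes passing in those refits was not computed. SLC16A1 (-0.33, adjusted p 0.0508) and SLC2A3 (-0.68, adjusted p 0.195) lay on the other side of 0 and did not pass.

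**Figure D3:**
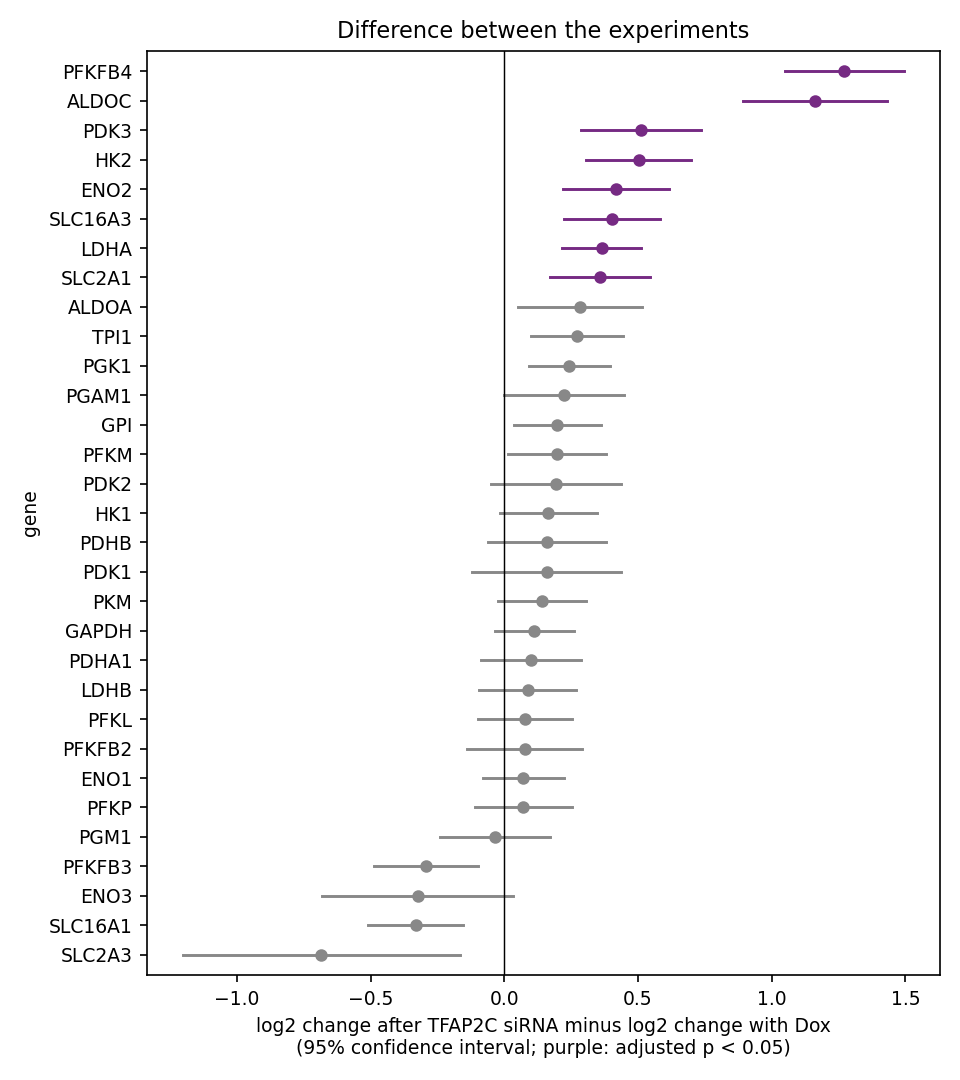
Log2 fold change after TFAP2C siRNA minus log2 fold change with Dox for the 31 members, with 95% confidence intervals, sorted by size. Purple marks an edgeR adjusted p under 0.05. The 8 purple genes all lie above 0, from 0.36 for SLC2A1 to 1.27 for PFKFB4.

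The control libraries of the experiments differed in the counts of several members. They were counted on different annotations, so these gaps cannot be read as differences between the cells. ALDOA had a mean of 30.8 CPM with control siRNA and 1126 CPM in control, and LDHB had 57.1 and 1132 CPM. SLC2A1 had 91.3 and 393 CPM, whereas ALDOC had 163 and 36.7 CPM and SLC2A3 had 21.5 and 4.32 CPM. The part of the annotation and of the transfection in these gaps was not tested. They affect how closely a change can be measured: SLC2A3 rested on 71 to 99 counts per library in the Dox experiment and on 262 to 492 in the siRNA experiment. They also change the share of each isoform in the reads of a family. The reads on LDHA were 93.2% to 94.3% of those on LDHA and LDHB in the siRNA table. In the Dox table they were 47.5% to 50.3%. Whether the isoforms of the cells differed was not tested. Aldolase, enolase, GAPDH, PGK1, PGAM1, TPI1 and lactate dehydrogenase genes have near-identical pseudogene copies, so their absolute counts depend on how such reads were treated.

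**Figure D4:**
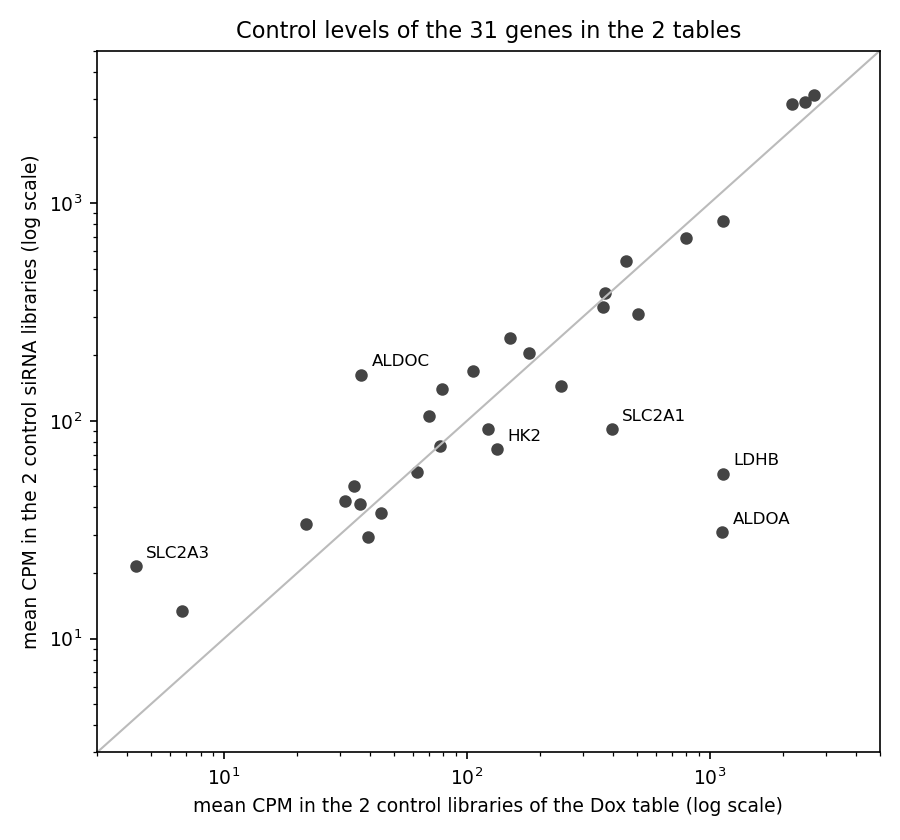
Mean CPM of each of the 31 members in the 2 control libraries of the Dox table (horizontal) and in the 2 control siRNA libraries (vertical), both on log axes, with a grey line of equal levels. ALDOA and LDHB lie far below the line, and ALDOC and SLC2A3 above it.

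Genes beside this set were read for comparison, against the 5.52% higher and 4.47% lower of all genes with Dox, and 0.26% and 0.48% after TFAP2C siRNA. Of 28 further isoforms and partners, 14 were tested after TFAP2C siRNA and 0 passed in the edgeR test. With Dox 13 were tested, of which 2 rose and 3 fell. HKDC1, a hexokinase-like gene, had 1.66 and 1.68 CPM in control and 4.0 and 3.28 CPM with Dox (log2 fold change 1.12, adjusted p 0.000714). BSG, the chaperone of the lactate transporters, rose by 0.17. The transporter genes SLC2A12 (-1.30), SLC2A4 (-0.78) and SLC2A6 (-0.63) fell. Among the glucose transporters, therefore, the calls with Dox fell on scarce genes and not on SLC2A1. Of 12 tested gluconeogenesis and glycogen genes, 2 rose with Dox, namely PCK2, the mitochondrial PEP carboxykinase (1.13), and PYGB, the brain-type glycogen phosphorylase (0.73). In that list 2 fell, PGM2L1 (-0.66) and GYS1 (-0.24), and after TFAP2C siRNA 0 of 12 passed. Of 9 pentose phosphate genes 2 rose with Dox, PGLS (0.32) and H6PD (0.22), and of 7 tested after TFAP2C siRNA 0 passed. Of the pyruvate carriers and dehydrogenase partners, 1 of 11 fell with Dox, DLAT (-0.17), and 0 of 10 passed after TFAP2C siRNA.

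The genes of the HIF pathway were read in the same way. HIF1A, which encodes the regulated subunit, had 296 and 269 CPM in control and 274 and 294 CPM in the libraries labelled SAE2 kd, a log2 fold change of 0.011 with an edgeR adjusted p of 0.929. EPAS1 rose by 0.22, while EGLN1 (-0.26) and EGLN3 (-1.23), prolyl hydroxylases that are themselves HIF targets, fell. Of 23 HIF targets outside glycolysis tested with Dox, 14 fell and 3 rose, where 4.47% and 5.52% of all genes did, with a median log2 fold change of -0.26 beside -0.00042 over all genes. After TFAP2C siRNA 1 of 24 was called, ADM, which encodes adrenomedullin and had 38.1 and 38.7 CPM with control siRNA and 53.2 and 60.3 CPM with TFAP2C siRNA (0.56, adjusted p 0.0113). ADM was one of the 14 that fell with Dox (-0.42).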

How the data were processed

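The labels name TopHat2 and HTSeq 0.9.1 and the build hg19, and the study's methods add RefSeq genes. The authors deposited raw read counts per gene, 1 table for each experiment, and no other unit. The siRNA table carries GRCh38 positions and Ensembl gene types, which differs from those methods. The strand setting of the counting is not given in the sources used here, so overlapping genes could share reads.

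In R 4.3.3, each table was filtered with filterByExpr, scaled by TMM and tested with the quasi-likelihood test of edgeR 4.0.16, with 2 libraries against 2 and Benjamini-Hochberg adjustment over all genes tested. SE is the log2 fold change over the root of F. The coefficient of biological variation that edgeR estimated was 6.28% (siRNA) and 3.56% (Dox), at the total counts given above. Differences between experiments came from 1 fit of all 8 libraries on shared symbols. The code was tested on simulated data.

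The members and gene lists were chosen with earlier results of these data known. Full values are given for HK2 and for members called with a log2 fold change of at least 0.3, and list genes are named where called, at 0.5 or more by rule. PYGB, PCK2 and others meet it, while BSG, GYS1, PGLS, H6PD, DLAT, EPAS1 and EGLN1 were named after their values were seen, as counts of 5 or fewer. Alternatives were DESeq2 1.42.0 size factors and its Wald test, library size only, no filter, at least 10 counts in every library, a replicate block, all 8 libraries in 1 fit and each library left out.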

Additional observations from a re-analysis of the deposited data

How the results depend on the processing

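For the members, 1000 of the values recomputed under an alternative kept their direction and side of the threshold, 35 gained a call, 49 lost one and 32 changed sign. The number of genes called after TFAP2C siRNA was 398 with no filter, 172 with the replicate block, 271 with all 8 libraries in 1 fit and 49 to 2825 with a library left out. With Dox it was 673 by DESeq2, 696 in 1 fit and 833 to 1271 with a library left out. Leaving out a library gave 0 to 11 members higher and 1 to 3 lower after TFAP2C siRNA, and 0 to 1 higher and 6 to 8 lower with Dox, where 1 fit of all libraries gave 5 lower. The member median with library size only was 0.071 (siRNA) and -0.089 (Dox), and 0.081 to 0.12 and -0.086 to -0.040 with a library left out. Differing members numbered 13 with no filter, 3 with the replicate block and 2 to 16 with a library left out. The cause of these shifts was not tested. The HK2 rise was 0.43 to 0.56 with a library left out, its difference 0.44 to 0.59 and its change with Dox -0.057 to 0.026. The deviations of first replicates from their group means correlated at -0.139 (siRNA) and 0.0744 (Dox), so the labels' numbers were not taken to pair libraries, and a replicate block kept all 3 member calls after TFAP2C siRNA. It ended the call of PFKM with Dox (adjusted p 0.0555) and the difference calls of PDK3 (0.0671), ENO2 (0.0867), LDHA (0.0684), SLC16A3 (0.0791) and SLC2A1 (0.130). A crossed replicate pairing, added after seeing the data, called 467 genes, with 3 members higher and 2 lower.

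The values that changed sign had no call in the edgeR test. With library size only they were PGM1 (-0.027 siRNA, -0.0037 Dox), PFKP (-0.0091 Dox), GAPDH (-0.025 Dox) and ENO2 (-0.0027 siRNA). PGM1 after TFAP2C siRNA was also -0.00030 with at least 10 counts and -0.0085 in 1 fit. With a library left out, the ranges after TFAP2C siRNA were -0.033 to 0.097 for HK1, -0.063 to 0.069 for PGM1, -0.023 to 0.12 for PFKM, -0.023 to 0.076 for ENO2, -0.024 to 0.093 for LDHB, -0.026 to 0.092 for PDHB and -0.088 to 0.14 for PDK1. With Dox they were -0.25 to 0.032 for SLC2A3, -0.015 to 0.063 for PGM1, -0.018 to 0.052 for PFKP, -0.0061 to 0.074 for PFKFB3, -0.011 to 0.015 for GAPDH, -0.00079 to 0.055 for PKM, -0.013 to 0.066 for PDHA1 and -0.13 to 0.019 for PDK2. The difference of PGM1 ran from -0.093 to 0.046.

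With 2 libraries a group, an exact test that reorders the library labels of 1 gene cannot reach 0.05. The calls rest on the spread shared across genes. A lone library left in a group was assumed to vary like the others. The edgeR estimate of variation was higher for the siRNA experiment, where the TFAP2C siRNA pair stood apart.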

Other observations

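Some HIF targets outside glycolysis moved against the others with Dox, and are described here for their size. DDIT4, an inhibitor of mTORC1 that also responds to cell stress, had 108 and 106 CPM in control and 244 and 224 CPM in the libraries labelled SAE2 kd (log2 fold change 1.13, edgeR adjusted p 3.22e-16). STC2, which encodes stanniocalcin 2, had 99.9 and 97.5 CPM against 203 and 181 CPM (0.96, adjusted p 6.06e-14). VEGFA, the vascular growth factor, had 76.1 and 74.0 CPM against 123 and 115 CPM (0.67, adjusted p 3.13e-10). In these 3 genes both Dox libraries were above both controls.

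Of the 14 falls in that list, 5 were larger than that of PFKFB4, namely PPFIA4, MIR210HG, ANGPTL4, EGLN3 and ANKRD37. PPFIA4 had 10.1 and 12.1 CPM in control and 4.0 and 3.92 CPM in the libraries labelled SAE2 kd (-1.49, edgeR adjusted p 4.05e-09). MIR210HG, the host transcript of miR-210, had 5.29 and 4.84 CPM against 2.0 and 1.99 CPM (-1.34, adjusted p 9.17e-06). ANGPTL4, an inhibitor of lipoprotein lipase, had 10.2 and 8.91 CPM against 3.72 and 4.08 CPM (-1.28, adjusted p 1.23e-07). ANKRD37 (-1.16), CA12 (-0.76), BNIP3 (-0.57), BNIP3L (-0.53) and PLOD2 (-0.51) also fell. After TFAP2C siRNA the log2 fold changes of PPFIA4, MIR210HG and ANGPTL4 were -0.25, 0.028 and 0.37, and none passed. These genes were chosen with earlier results of these data known.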
